A study of Mus musculus with 384 samples.

Results

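The livers of male Diversity Outbred mice were compared between a high fat diet and standard chow. The males were chosen by the mouse names that start with M, which all carry the sex label male, and they numbered 94 of the 192 mice of the series. Of these, 46 ate the high fat diet (22% fat by weight) and 48 ate chow (6% fat by weight), both from weaning until the livers were taken at 26 weeks of age. The labels call the genotype of every mouse wild type. Diversity Outbred mice descend from several inbred founder strains and are bred to avoid sister-brother matings, so each animal has its own genotype and the spread between mice holds genetic as well as other variation. An outbreeding generation label, G11L1 or G11L2, was carried by 25 and 21 of the high fat males and by 23 and 25 of the chow males, and the labels do not explain L1 and L2. The mRNA of each liver was sequenced as 2 technical repeats that the deposited table holds as a single column, so the mouse was the replicate. Values are a signal per gene, scaled by the authors to the upper quartile of each mouse and not divided by transcript length. They are therefore compared between mice for the same gene and never between genes.

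Cholesterol is made in the liver from acetyl-CoA through the mevalonate pathway, squalene and lanosterol. Sterol regulatory element binding protein 2 (SREBP-2) switches the genes of that route on when membranes are low in sterol, and cholesterol leaves the hepatocyte in lipoproteins or as bile acids, which mice join mainly to taurine. Mouse liver is also strongly sex-dimorphic: the male pattern of growth hormone pulses acts through STAT5B and keeps male-biased genes high and female-biased genes low. In fatty liver, recruited macrophages that carry TREM2 and GPNMB gather lipid beside the resident Kupffer cells, and activated stellate cells make fibrillar collagen.

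Estimated depth was 9.79 to 17.9 M reads per male, with a median of 13.8 M in the high fat group and 14.6 M in the chow group. A depth read from normalized values is itself an estimate, and precision rests mainly on the number of mice. Xist, the RNA of the inactive X chromosome, had a signal of 0.332 to 2.47 in the 94 males and a median of 213 in the 98 females. In 1 chow female its signal was 0.361, within the male range, and the comparison with females below was also made without it. Pancreas transcripts summed to more than 10 times the median of all mice in 6 males (2 on high fat, 4 on chow), and 5 males (3 on high fat, 2 on chow, 1 of them also among these 6) correlated least with the other males. The groups were of liver by their markers: all 12 hepatocyte genes listed were measured, and none of the 8 skeletal muscle genes passed the filter on low values.

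The diet comparison asked which transcripts differed between high fat and chow males. limma, with the generation label as a covariate, tested 14447 genes on the scale log2(signal + 0.0629) and called a gene at an adjusted p under 0.05. With the deposited scaling 7144 genes (49.4%) were called, 1542 higher on high fat (10.7%) and 5602 lower (38.8%). That split moved with the scaling: with median-of-ratios rescaling 2606 were higher and 2207 lower, and 2032 were higher and 2547 lower after quantile normalization. The share of calls that were higher was 21.6% with the deposited values, 54.1% after rescaling and 44.4% after quantile normalization. Rescaling moved the median log2 change of all genes by 0.10, to 0.01 from -0.10. "Rose" and "fell" are therefore used below only of genes called in the same direction with both the deposited and the rescaled values, of which 1542 rose (10.7%) and 2207 fell (15.3%). At least 1.5-fold changes on the deposited scale were found for 309 of the genes that rose and 194 of those that fell, and 70 and 53 of them reached 2-fold. Fold changes are on that same scale and understate the change of genes near 0, and ± after a log2 change is its standard error. No gene separated all high fat males from all chow males in either direction.

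Within the generation labels the direction was nearly always shared. Of the 3749 genes called with both scalings, 3746 had the same direction in G11L1 as in G11L2 mice, and 2204 were called in each label alone. These genes were chosen by calls in the same males pooled over both labels, which largely fixes a shared direction. A shared direction, here and in the lists below, is therefore a description and not independent support. The difference between the labels was itself tested, and 0 of 14447 genes were called by limma (smallest adjusted p = 0.597), while 795 genes (5.50%) had an unadjusted p under 0.05. In bulk liver RNA, fewer cells of a type and less RNA per cell cannot be told apart. Summed signal of the 12 hepatocyte markers was 11760 to 41940 in the high fat males (median 20750) and 15500 to 37020 in the chow males (median 24750). Of the 12, 5 were lower with both scalings and 0 higher, beside 15.3% and 10.7% of all genes. After quantile normalization 3 of the 12 were lower and 0 higher. The part of a change in cell makeup in the metabolic results below was not tested.

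**Figure D1:**
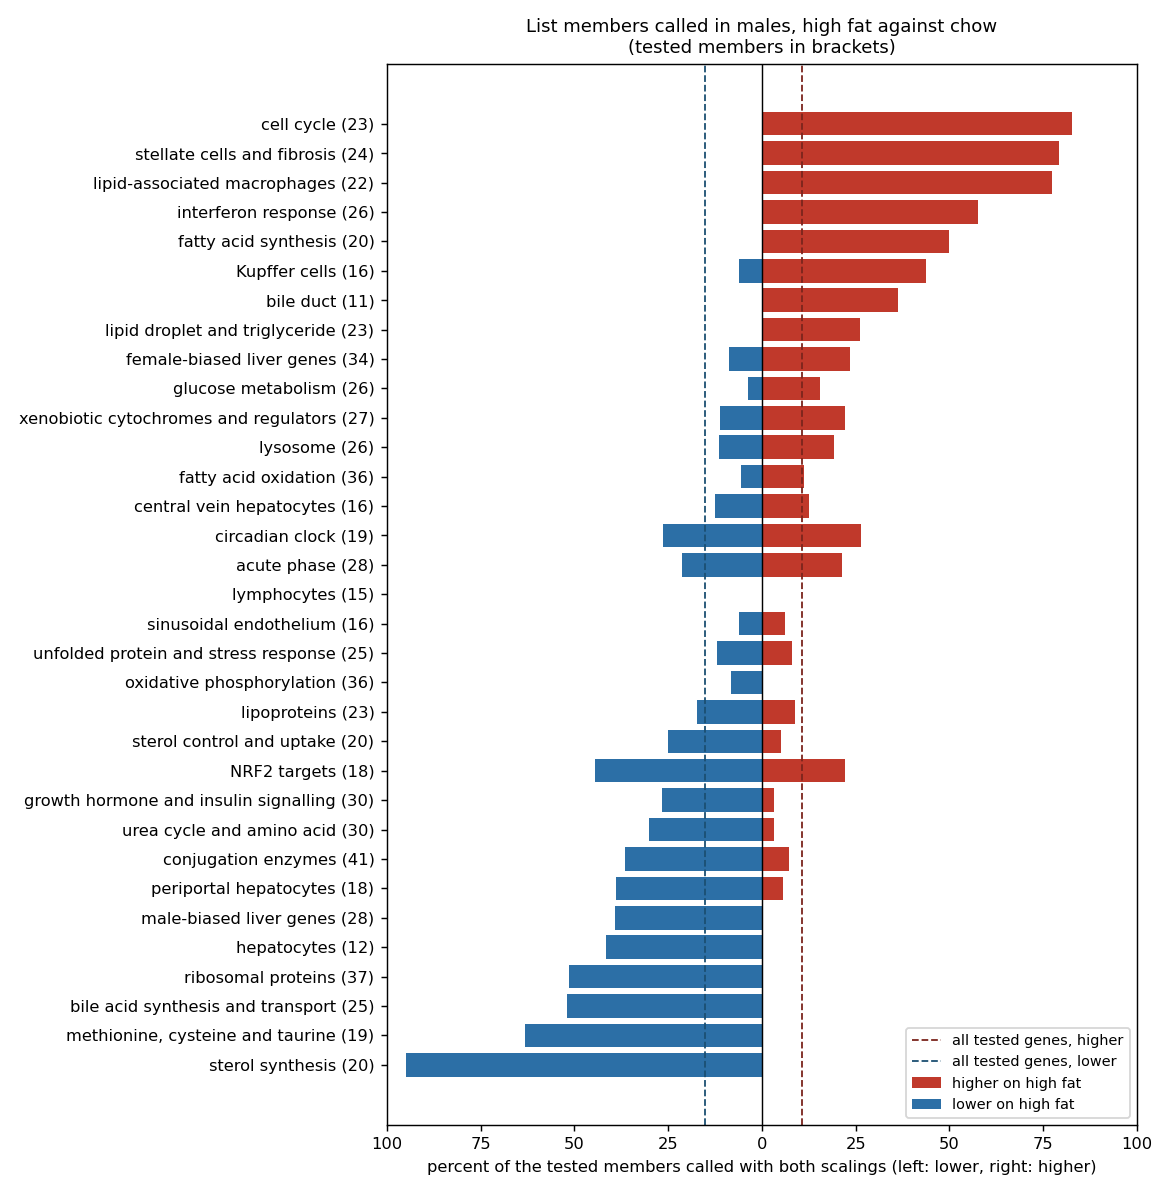
Percent of the tested members of each gene list that were called with both scalings in males, drawn to the right where higher on high fat and to the left where lower. The dashed lines mark all tested genes (10.7% higher, 15.3% lower). Lists with at least 10 tested members are shown, and sterol synthesis lies furthest to the left, with 19 of 20 members lower.

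Sterol synthesis had the largest share of called members of any list drawn in the plot of list percentages. All 20 enzymes listed from acetyl-CoA to cholesterol were called lower on high fat with the deposited values, and 19 of 20 fell with both scalings, beside 15.3% of all genes. The median log2 change of the 20 was -0.94 as deposited and -0.83 rescaled, against -0.10 and 0.01 for all genes. Among the 15 enzymes whose promoters were found in the RefSeq table (GRCm38.p6, 250 bases before to 50 after the start), 14 carried the letters CCAAT on either strand, the core of the binding motif of NF-Y. The same letters occur in 37.4% of all 32851 promoters, or in 41.1% of the 27025 genes, and in 13 of 17 genes of fatty acid synthesis. The letters TCACNCCAC, searched on both strands as a form of the sterol regulatory element, were found in 1 of the 15 enzymes, Hmgcs1, and in 1.24% of all promoters. A match is a description of letters and not a site of binding. The 250 bases before the start are shown for Hmgcs1, which holds both motifs, and for Idi1, Msmo1 and Nsdhl, which are among the 15 genes named for the size of their fall. Capitals mark CCAAT or its reverse complement in all of them and, in Hmgcs1, also the sterol element, 137 bases before the start. The motifs do not overlap.
Hmgcs1 (chr13:119690101-119690350, forward strand): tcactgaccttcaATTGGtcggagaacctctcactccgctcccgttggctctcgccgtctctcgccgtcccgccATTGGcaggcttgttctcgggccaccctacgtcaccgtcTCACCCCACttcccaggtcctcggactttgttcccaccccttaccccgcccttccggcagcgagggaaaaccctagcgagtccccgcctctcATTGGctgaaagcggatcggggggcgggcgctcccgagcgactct
Idi1 (chr13:8885356-8885605, forward strand): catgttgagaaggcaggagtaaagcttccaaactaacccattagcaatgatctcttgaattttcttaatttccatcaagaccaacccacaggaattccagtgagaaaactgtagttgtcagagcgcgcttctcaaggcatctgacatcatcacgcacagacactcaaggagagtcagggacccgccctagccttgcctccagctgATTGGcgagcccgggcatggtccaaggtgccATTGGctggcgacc
Msmo1 (chr8:64733579-64733828, reverse strand): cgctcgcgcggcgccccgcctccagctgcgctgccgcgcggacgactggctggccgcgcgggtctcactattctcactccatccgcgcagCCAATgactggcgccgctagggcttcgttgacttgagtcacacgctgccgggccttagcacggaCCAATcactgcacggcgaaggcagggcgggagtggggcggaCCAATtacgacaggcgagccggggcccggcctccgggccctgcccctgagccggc
Nsdhl (chrX:72918271-72918520, forward strand): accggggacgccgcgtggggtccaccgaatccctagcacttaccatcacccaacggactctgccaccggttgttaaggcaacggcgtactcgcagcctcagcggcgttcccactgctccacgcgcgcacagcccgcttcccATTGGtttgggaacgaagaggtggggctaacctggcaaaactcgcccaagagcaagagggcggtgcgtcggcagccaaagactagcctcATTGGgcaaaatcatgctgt

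Sqle encodes squalene epoxidase, which oxidizes squalene on the way to lanosterol (ENSMUSG00000022351, chromosome 15, 59315077 to 59331192 on GRCm38). Its signal was 0.421 to 26.5 in the high fat males (median 3.48) and 2.31 to 37.6 in the chow males (median 17.2). The groups overlapped, but 17 of 46 high fat males lay below every chow male and 1 lay above the chow median. Sqle was 5.09-fold lower, a log2 change of -2.35 ± 0.24 (adjusted p = 6.68e-13), and its change was -1.94 in G11L1 and -2.78 in G11L2 mice.

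Idi1, the isomerase that makes dimethylallyl diphosphate in the mevalonate route, had a signal of 2.79 to 47.1 in the high fat males (median 11.6) and 11.7 to 127 in the chow males (median 41.4). It was 3.96-fold lower, a log2 change of -1.98 ± 0.17 (adjusted p = 3.04e-16). For Cyp51, the lanosterol demethylase, the signal was 2.67 to 35.1 in the high fat males (median 12.3) and 14.7 to 81.4 in the chow males (median 35.5). No high fat male reached the chow median, and 31 of 46 lay below the lowest chow male. Cyp51 was 3.44-fold lower, a log2 change of -1.78 ± 0.16 (adjusted p = 7.7e-16).

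Msmo1, a methylsterol oxidase that follows Cyp51, was 3.13-fold lower, a log2 change of -1.65 ± 0.15 (adjusted p = 1.44e-14), with 34 of 46 high fat males under every chow male. Nsdhl, a sterol dehydrogenase of the same steps, was 2.66-fold lower, a log2 change of -1.41 ± 0.13 (adjusted p = 1.61e-14). Upstream in the mevalonate route, the synthase Hmgcs1 (-1.39 ± 0.17), the decarboxylase Mvd (-1.26 ± 0.20), the kinases Mvk (-0.89 ± 0.08) and Pmvk (-0.89 ± 0.13) and the prenyl synthase Fdps (-1.04 ± 0.16) all fell. Fdps shared 26.2% of its 50-base words with other genes, so part of its signal may belong to copies. Each of the 19 enzymes that fell kept its call without the 6 males with pancreas transcripts and without the 5 least alike males, and 18 of 19 were called in each generation label alone.

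Genes that control sterol uptake moved less as a group: 5 of 20 fell and 1 rose, beside 15.3% and 10.7% of all genes. Insig1, which holds SREBP in the endoplasmic reticulum, had a signal of 17.9 to 178 in the high fat males (median 47.1) and 39.5 to 152 in the chow males (median 78.2) and was 1.62-fold lower, a log2 change of -0.70 ± 0.13 (adjusted p = 5.11e-06). Lower values were also called for the sterol carrier Stard4 (-0.58 ± 0.09), Srebf2 itself (-0.53 ± 0.06) and its escort Scap (-0.35 ± 0.06). Abcg1, a cholesterol exporter that liver X receptors switch on and that macrophages also use, rose (0.53 ± 0.08).

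**Figure D2:**
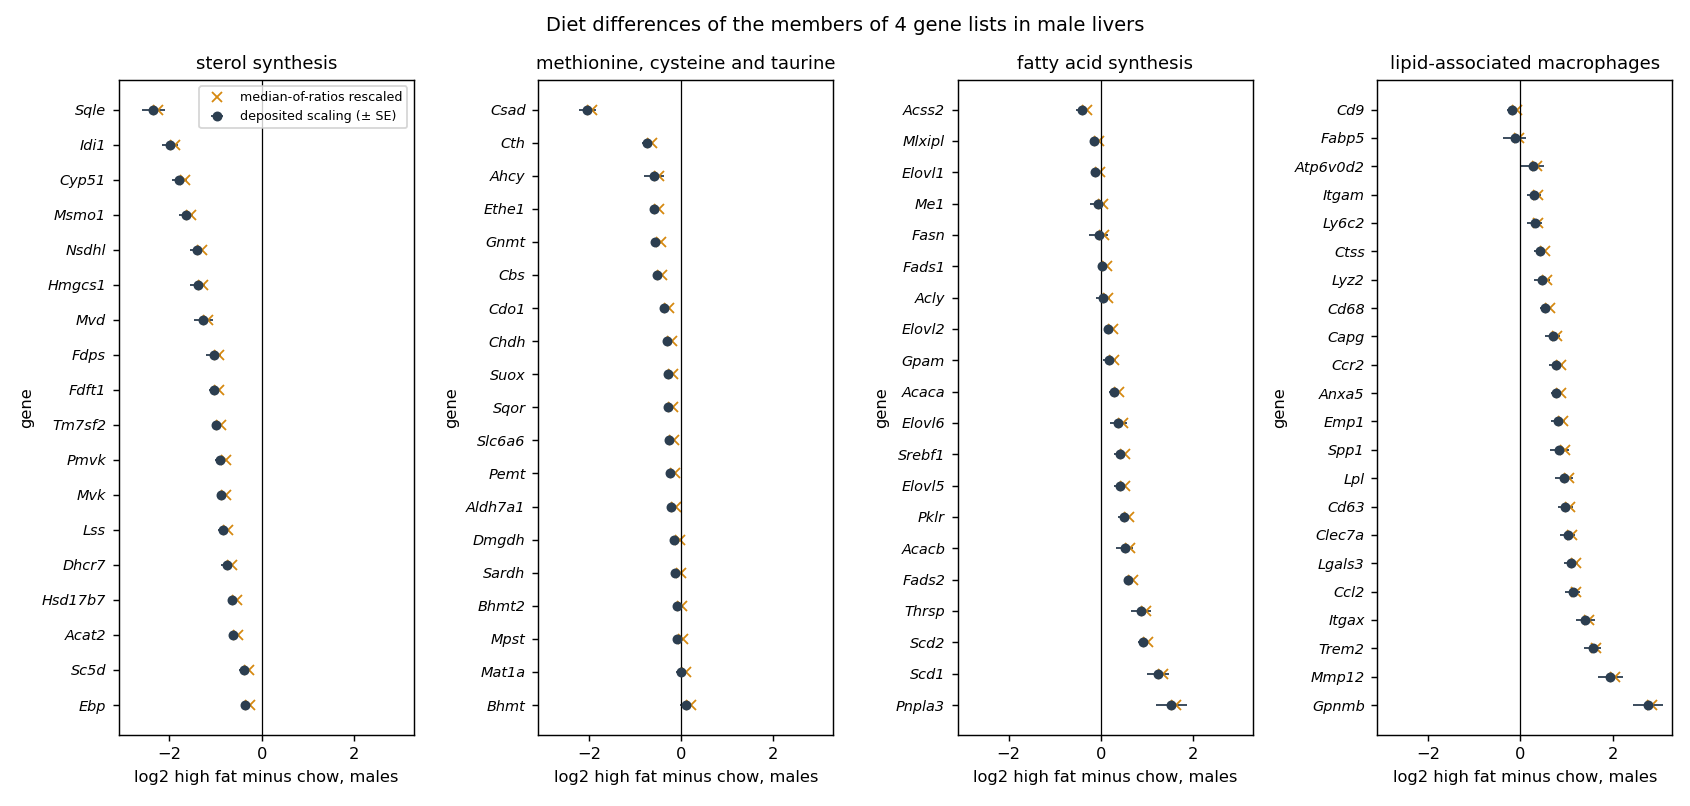
Log2 change (high fat minus chow) in males for tested members of 4 gene lists, with 1 row per gene; points with bars are the deposited scaling ± SE and crosses the median-of-ratios rescaled values. Sqle (-2.35) and Csad (-2.04) lie furthest to the left and Gpnmb (2.77) furthest to the right.

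Among sulfur amino acid enzymes 12 of 19 tested members were lower with both scalings (15.3% of all genes) and 0 higher. Their median log2 change was -0.28, or -0.17 rescaled. The count depended on scaling: after quantile normalization 6 of 19 were lower and 1 higher, beside 2547 and 2032 of all 14447 genes. Csad, cysteine sulfinate decarboxylase (ENSMUSG00000023044, chromosome 15, 102176999 to 102204724), makes the hypotaurine from which taurine forms. Its signal was 1.95 to 29.0 in the high fat males (median 7.27) and 6.57 to 156 in the chow males (median 32.2). All 46 high fat males lay below the chow median and 18 lay below the lowest chow male. Csad was 4.10-fold lower, a log2 change of -2.04 ± 0.19 (adjusted p = 1.44e-14), with -2.18 in G11L1 and -1.88 in G11L2 mice.

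Cdo1, the dioxygenase that supplies the substrate of Csad, fell (-0.37 ± 0.08), and so did Slc6a6, the taurine transporter (-0.26 ± 0.05). In the transsulfuration route to cysteine, Cth had a signal of 17.6 to 115 in the high fat males (median 63.4) and 51.6 to 203 in the chow males (median 104) and was 1.68-fold lower, a log2 change of -0.75 ± 0.10 (adjusted p = 1.14e-08), and Cbs fell (-0.53 ± 0.07). Gnmt, which consumes S-adenosylmethionine, fell (-0.56 ± 0.09). The betaine-dependent methyltransferase Bhmt (0.10 ± 0.12) and the methionine adenosyltransferase Mat1a (-0.01 ± 0.10) were not called. Ahcy was called lower with the deposited values only (-0.59 ± 0.21), and 68.7% of its words are shared with other genes, so its level is uncertain.

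Bile acid genes fell in 13 of 25 cases (15.3% of all genes) and rose in 0, with a median log2 change of -0.25 (-0.13 rescaled). After quantile normalization 8 of 25 were lower and 1 higher, beside 2547 and 2032 of all 14447 genes. Cyp7b1, the oxysterol hydroxylase of the alternative route, had a signal of 6.60 to 286 in the high fat males (median 71.0) and 19.8 to 303 in the chow males (median 149) and was 1.98-fold lower, a log2 change of -0.99 ± 0.22 (adjusted p = 0.000103). Lower values were also called for Cyp27a1 (-0.43 ± 0.07), the muricholic acid enzyme Cyp2c70 (-0.46 ± 0.13) and Cyp8b1, which sets the cholic acid share (-0.38 ± 0.11). Baat, which joins bile acids to taurine, fell (-0.23 ± 0.05). Among the transporters and receptors, the export pump Abcb11 (-0.45 ± 0.07) and the FGF15 receptor pair Fgfr4 (-0.39 ± 0.05) and Klb (-0.50 ± 0.09) fell. Cyp7a1, the rate-limiting enzyme of the classic route, was not called, at 31.2 ± 19.7 in the high fat males and 30.8 ± 20.1 in the chow males (SD), with a log2 change of 0.10 (adjusted p = 0.669).

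**Figure D3:**
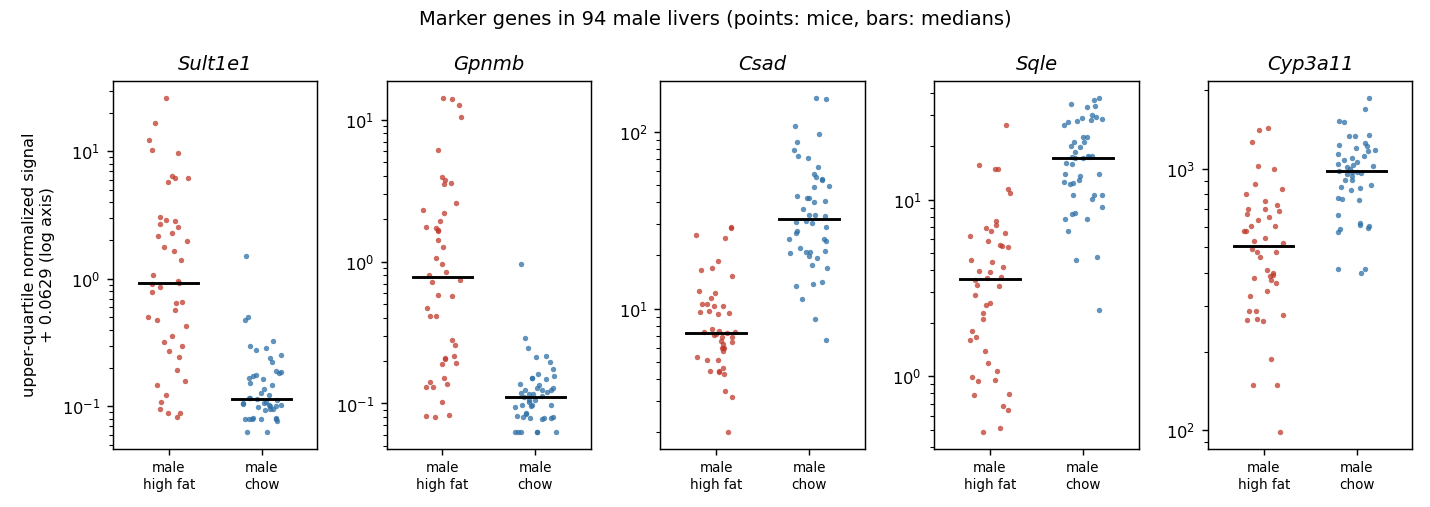
Signal of the 5 marker genes in each male (points), with the pseudocount of 0.0629 added and a log axis; high fat males are in red on the left, chow males in blue on the right, and bars are medians. The groups overlap for every gene, while 17 high fat males lie below every chow male for Sqle and 21 lie above every chow male for Gpnmb.

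Fatty acid synthesis went the other way: 10 of 20 genes rose and 0 fell, beside 10.7% of all genes higher. Pnpla3, a lipid droplet acylhydrolase, had a signal of 0.113 to 113 in the high fat males (median 1.11) and 0.0851 to 7.28 in the chow males (median 0.358) and was 2.89-fold higher, a log2 change of 1.53 ± 0.34 (adjusted p = 0.000132). A single high fat male held the highest value, while 40 of 46 lay above the chow median. Scd1, the main stearoyl-CoA desaturase of liver, ranged over 180.4 to 8507 in the high fat males (median 1828) and 187 to 2535 in the chow males (median 739) and was 2.37-fold higher, a log2 change of 1.25 ± 0.24 (adjusted p = 1.66e-05).

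Scd2 (0.93 ± 0.11), the lipogenic regulator Thrsp (0.87 ± 0.21), the desaturase Fads2 (0.60 ± 0.10), both acetyl-CoA carboxylases Acacb (0.52 ± 0.18) and Acaca (0.28 ± 0.11), pyruvate kinase Pklr (0.51 ± 0.13), the elongase Elovl5 (0.42 ± 0.12) and Srebf1 (0.42 ± 0.12) completed the 10 that rose. Fasn, the fatty acid synthase, was not called (-0.05 ± 0.21), nor were Acly (0.05 ± 0.15) and Me1 (-0.07 ± 0.17). All 10 had the same direction in both generation labels, but 3 of 10 were called in the G11L1 mice alone and 7 of 10 in the G11L2 mice alone. Acaca, Acacb and Elovl5 were called in neither label alone. Acaca also lost its call without the 5 least alike males and with coat colour as a further covariate, and 30.4% of its words are shared with other genes. In females on the same diets the median log2 change of the list was 0.51, and in males 0.33.

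Of 23 tested genes of lipid droplets and triglyceride, 6 rose (10.7% of all genes) and 0 fell. Apoa4, an apolipoprotein that rises in fatty mouse liver, had a signal of 60.8 to 1236 in the high fat males (median 278) and 21.8 to 549 in the chow males (median 63.2); 45 of 46 high fat males lay above the chow median. It was 4.01-fold higher, a log2 change of 2.00 ± 0.23 (adjusted p = 5.36e-11). Mogat1, a monoacylglycerol acyltransferase, was 3.08-fold higher, a log2 change of 1.62 ± 0.29 (adjusted p = 2.13e-06).

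The fatty acid transporter Cd36 (1.33 ± 0.20) and the droplet proteins Cidea (1.29 ± 0.36), Cidec (1.25 ± 0.32) and Plin4 (0.56 ± 0.23) rose as well. Cidea, Cidec and Plin4 were called in G11L1 but not in G11L2 mice alone (Cidec was 1.94 in G11L1 and 0.52 in G11L2 mice), and Plin4 lost its call without the 5 least alike males and with coat colour as a further covariate. Other droplet coats, Plin2 (-0.06 ± 0.12) and Plin5 (-0.14 ± 0.08), and the nuclear receptor Pparg (-0.06 ± 0.21) were not called. Fatty acid oxidation stayed near the level of all genes, with 4 of 36 genes higher and 2 lower. The 4 were the pantetheinase Vnn1 (1.53 ± 0.28), the hydroxylase Cyp4a31 (1.04 ± 0.26), the uncoupling protein Ucp2 (0.40 ± 0.10) and Acaa1b (0.33 ± 0.13), and the 2 were Acaa2 (-0.23 ± 0.05) and Acadvl (-0.20 ± 0.04), both of mitochondrial oxidation. Acaa2 and Cyp4a31 were not called in G11L2 mice alone. Acaa1b lost its call without the males with pancreas transcripts, without the 5 least alike males and in either generation label alone, and 30.5% of its words are shared with other genes. Ppara (0.05 ± 0.09) and Cpt1a (0.12 ± 0.06) were not called, and neither was the hormone gene Fgf21 (0.26 ± 0.23). The median log2 change of the oxidation list was -0.03 in males and 0.27 in females. In the comparison with females below, 9 of its 36 genes had a lower diet difference in males with both scalings, beside 2.1% of all genes.

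Among drug-metabolizing cytochromes and their regulators 6 of 27 rose, beside 10.7% of all genes, and 3 of 27 fell, no more than the 15.3% of all genes. Cyp3a11 (ENSMUSG00000056035, chromosome 5, 145854426 to 145879964) is the main mouse counterpart of human CYP3A4. Its signal was 98.5 to 1425 in the high fat males (median 505) and 399.7 to 1867 in the chow males (median 977). Overlap was wide, although 17 of 46 high fat males lay below the lowest chow male and 5 above the chow median. Cyp3a11 was 1.98-fold lower, a log2 change of -0.99 ± 0.13 (adjusted p = 4.97e-09), with -0.77 in G11L1 and -1.21 in G11L2 mice.

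Cyp3a25 (-0.64 ± 0.14) and the caffeine-oxidizing Cyp1a2 (-0.45 ± 0.10) fell too. Members of the CAR-responsive Cyp2b family rose, namely Cyp2b9 at 2.89-fold higher, a log2 change of 1.53 ± 0.45 (adjusted p = 0.00351), and also Cyp2b13 (1.07 ± 0.36) and Cyp2b10 (0.73 ± 0.28). Cyp2a22 (0.68 ± 0.25), Cyp2c55 (0.59 ± 0.23) and the haem synthesis enzyme Alas1 (0.67 ± 0.24) rose as well. The receptors Nr1i3 (CAR) (0.08 ± 0.15) and Nr1i2 (PXR) (-0.05 ± 0.07) were not called. Of these 9 calls, 6 were also made in G11L1 mice alone and 3 in G11L2 mice alone, where none of the genes that rose was called. Cyp2a22 and Alas1 were called in neither label alone. Cyp2a22 also lost its call without the 5 least alike males, and Cyp2b10 without the 6 males with pancreas transcripts.

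Sult1e1 (ENSMUSG00000029272, chromosome 5, 87575969 to 87591594), which sulfates and inactivates oestrogens, stood apart among conjugation enzymes. Its signal was 0.0196 to 26.3 in the high fat males (median 0.862) and 0 to 1.45 in the chow males (median 0.0520). Most chow males were near 0, whereas 19 of 46 high fat males exceeded every chow male and 41 exceeded the chow median. It was 6.96-fold higher, a log2 change of 2.80 ± 0.34 (adjusted p = 2.83e-10), with 3.31 in G11L1 and 2.27 in G11L2 mice.

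Otherwise the conjugation list leaned down, with 15 of 41 members lower and 3 higher, beside 15.3% and 10.7% of all genes. The glutathione transferase Gsta2 had a signal of 0.374 to 29.6 in the high fat males (median 4.16) and 1.40 to 42.9 in the chow males (median 15.2) and was 2.71-fold lower, a log2 change of -1.44 ± 0.24 (adjusted p = 5.52e-07), though 49.8% of its words occur in other genes. Lower values were also called for Gstm6 (-0.89 ± 0.16), Gsta4 (-0.71 ± 0.11), Gstm1 (-0.63 ± 0.11), the carboxylesterase Ces2a (-0.80 ± 0.13) and the glucuronosyltransferase Ugt2b38 (-1.06 ± 0.31). Ugt2b38 shared 37.4% of its words with other genes. Among antioxidant genes known as NRF2 targets 8 of 18 fell and 4 rose, beside 15.3% and 10.7% of all genes. Those that fell included the glutathione genes Gclc (-0.44 ± 0.08) and Gsr (-0.39 ± 0.04), and those that rose included the pentose phosphate enzymes Pgd (0.36 ± 0.08) and G6pdx (0.20 ± 0.09). Neither Pgd nor G6pdx was called in G11L2 mice alone. G6pdx also lost its call without the 5 least alike males and with coat colour as a further covariate. Nqo1 (-0.01 ± 0.15) and Hmox1 (0.18 ± 0.12) were not called.

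Genes known as male-biased in mouse liver were lower in 11 of 28 cases (15.3% of all genes) and higher in 0, with a median log2 change of -0.47 (-0.36 rescaled). Elovl3, a fatty acid elongase, had a signal of 1.78 to 89.2 in the high fat males (median 21.9) and 8.47 to 152 in the chow males (median 47.5) and was 2.37-fold lower, a log2 change of -1.24 ± 0.22 (adjusted p = 1.81e-06). Serpina1e, a serpin of the antitrypsin group, was 3.08-fold lower, a log2 change of -1.62 ± 0.49 (adjusted p = 0.00404), with levels that spread over 7.15 to 2736 in the high fat males (median 717) and 5.71 to 4120 in the chow males (median 2011). Serpina1e shared 34.6% of its words with other genes. Obp2a, an odorant-binding protein, was 3.26-fold lower, a log2 change of -1.71 ± 0.54 (adjusted p = 0.00597).

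Egfr (-0.87 ± 0.22), Susd4 (-0.84 ± 0.22), Cspg5 (-0.91 ± 0.25) and Slco1a1 (-0.55 ± 0.13) fell, while Cyp4a12a (-0.28 ± 0.11), Cyp2d9 (-0.33 ± 0.11) and Hsd3b5 (-0.66 ± 0.32) were not called with both scalings. Cyp4a12a shared 48.9% of its words with other genes. Of the 11 that fell, 9 were called in G11L1 mice alone and 3 in G11L2 mice alone, all lower; Serpina1e and Obp2a were not called in G11L2 mice. Major urinary protein genes, pheromone carriers of male liver, took 11.3 ± 5.28% of the summed signal in high fat males and 11.4 ± 4.53% in chow males (SD, n = 46 and 48). That difference of -0.162 percentage points had p = 0.874 in a two-sided permutation test with 100000 resamples (adjusted p = 0.874 over 2 shares tested), and it was 0.372 in G11L1 and -0.622 in G11L2 mice. The 10 largest genes took 21.0 ± 2.91% in high fat males and 21.8 ± 3.18% in chow males, a difference of -0.822 points (permutation p = 0.196, adjusted p = 0.392; -0.379 in G11L1, -1.25 in G11L2).

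Genes known as female-biased were higher in 8 of 34 cases, beside 10.7% of all genes, and lower in 3, no more than the 15.3% of all genes. Ntrk2, the receptor of brain-derived neurotrophic factor, had a signal of 0.150 to 24.9 in the high fat males (median 3.69) and 0.0364 to 9.71 in the chow males (median 0.408) and was 4.14-fold higher, a log2 change of 2.05 ± 0.39 (adjusted p = 9.62e-06). Cyp17a1, a steroid hydroxylase, rose (0.87 ± 0.28), as did Lepr, the leptin receptor (0.39 ± 0.12), while Cyp2c69 (-0.85 ± 0.30), Cyp3a44 (-0.57 ± 0.15) and Prlr, the prolactin receptor (-0.55 ± 0.14), fell. Cyp2c69 shared 54.3% of its words with other genes. Several members belong to other lists too, among them Cd36, Vnn1 and the Cyp2b genes. Of the 11 calls of the female-biased list, 8 were also made in G11L1 mice alone and 5 in G11L2 mice alone. Cyp2c69 was called in neither label alone, Cyp3a44 and Prlr not in G11L1 mice, and Cyp17a1, Lepr and the Cyp2b genes not in G11L2 mice. In growth hormone and insulin signalling 8 of 30 genes fell and 1 rose, beside 15.3% and 10.7% of all genes. After quantile normalization 5 of 30 were lower and 5 higher, beside 2547 and 2032 of all 14447 genes. Socs2, a feedback inhibitor that growth hormone induces, fell (-0.68 ± 0.22), and so did Igf1 (-0.26 ± 0.06), Igfbp2 (-0.55 ± 0.18) and Stat5b (-0.31 ± 0.05). Of the 9 calls of this list, 6 were also made in G11L1 mice alone and 4 in G11L2 mice alone. Socs2 and Igfbp2 were called in neither label alone. Igf1 was not called in G11L2 mice alone or after quantile normalization. The growth hormone receptor Ghr (-0.11 ± 0.06) and the insulin receptor Insr (-0.20 ± 0.06) did not pass with both scalings.

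Markers of lipid-associated macrophages rose in 17 of 22 cases and fell in 0, beside 10.7% of all genes higher. Their median log2 change was 0.80 (0.90 rescaled), and 16 of the 17 were called in G11L1 mice alone and 14 in G11L2 mice alone. Summed signal of the list was 35.0 to 295 in the high fat males (median 71.7) and 26.7 to 109 in the chow males (median 44.1), so the groups overlapped. None of the 22 markers had a median of 0 over the males.

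Gpnmb (ENSMUSG00000029816, chromosome 6, 49036546 to 49070929), a glycoprotein of lysosomes in lipid-laden macrophages, had a signal of 0.0175 to 14.2 in the high fat males (median 0.711) and 0 to 0.900 in the chow males (median 0.0488). Chow males clustered near 0, and 21 of 46 high fat males exceeded all of them. Gpnmb was 6.83-fold higher, a log2 change of 2.77 ± 0.32 (adjusted p = 4.29e-11), with 2.80 in G11L1 and 2.74 in G11L2 mice.

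Mmp12, the macrophage elastase, had a signal of 0.0417 to 9.37 in the high fat males (median 1.15) and 0 to 0.985 in the chow males (median 0.213) and was 3.87-fold higher, a log2 change of 1.95 ± 0.26 (adjusted p = 4.03e-09); 26 of 46 high fat males exceeded every chow male. Trem2, a lipid receptor of these macrophages, had a signal of 0.0159 to 2.55 in the high fat males (median 0.233) and 0 to 0.213 in the chow males (median 0.0380) and was 2.97-fold higher, a log2 change of 1.57 ± 0.19 (adjusted p = 1.84e-10). The integrin Itgax (1.41 ± 0.21), the chemokine Ccl2 (1.13 ± 0.17), galectin Lgals3 (1.11 ± 0.15), Cd63 (0.97 ± 0.17), lipoprotein lipase Lpl (0.95 ± 0.20) and Spp1, osteopontin (0.85 ± 0.21), rose. Cd9 (-0.18 ± 0.11) and Fabp5 (-0.13 ± 0.24) were not called.

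Markers of resident Kupffer cells changed by smaller amounts, with 7 of 16 higher and 1 lower, beside 10.7% and 15.3% of all genes. The complement genes C1qa (0.28 ± 0.10), C1qb (0.35 ± 0.10) and C1qc (0.26 ± 0.09), the receptor Csf1r (0.24 ± 0.09) and Adgre1, which encodes F4/80 (0.34 ± 0.12), rose. So did Cd5l (0.38 ± 0.12) and Clec1b (0.21 ± 0.07), which are markers of resident Kupffer cells. Cd163, a haemoglobin scavenger receptor, fell (-0.55 ± 0.18), a call that was lost without the 5 least alike males. Clec4f (0.15 ± 0.08), Timd4 (0.02 ± 0.11) and Vsig4 (0.02 ± 0.10), which also mark resident cells, were not called. Kupffer sums were 86.7 to 311 in the high fat males (median 144) and 85.9 to 204 in the chow males (median 142). Of the 8 calls, 2 were also made in G11L1 mice alone and 0 in G11L2 mice alone.

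Stellate cell and matrix genes rose in 19 of 24 cases (10.7% of all genes) and fell in 0, with a median log2 change of 0.40. Col1a1, a chain of fibrillar collagen I, had a signal of 0.246 to 6.74 in the high fat males (median 1.05) and 0.174 to 1.07 in the chow males (median 0.377) and was 2.47-fold higher, a log2 change of 1.30 ± 0.18 (adjusted p = 3.99e-09). Col3a1 (1.04 ± 0.13), Col1a2 (0.98 ± 0.13), the collagenase Mmp13 (0.92 ± 0.18), thrombospondin Thbs1 (0.69 ± 0.16), Pdgfrb (0.62 ± 0.11) and Timp1 (0.44 ± 0.17) followed. Acta2 (0.21 ± 0.14), Des (0.07 ± 0.08) and Lrat (0.21 ± 0.12), markers of activated and quiescent stellate cells, were not called. The list summed to 59.5 to 164 in the high fat males (median 108) and 38.4 to 119.7 in the chow males (median 83.0). Of the 19, 10 were called in G11L1 mice alone and 17 in G11L2 mice alone, all higher.

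Cell cycle genes rose in 19 of 23 cases (10.7% of all genes) and fell in 0, with a median log2 change of 0.48. Mki67, the proliferation antigen, had a signal of 0.218 to 6.67 in the high fat males (median 0.958) and 0.148 to 3.73 in the chow males (median 0.461) and was 1.96-fold higher, a log2 change of 0.97 ± 0.18 (adjusted p = 4.21e-06). Cyclins Ccna2 (0.67 ± 0.15) and Ccnb1 (0.76 ± 0.20), the topoisomerase Top2a (0.75 ± 0.17) and the inhibitor Cdkn1a (p21) (0.80 ± 0.31) rose. Without the 6 males with pancreas transcripts, Cdc20, Cdk1 and Ccne1 lost their calls. In all, 12 of the 19 were called in G11L1 mice alone and 7 in G11L2 mice alone.

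Interferon-stimulated genes were higher in 15 of 26 cases (10.7% of all genes) and lower in 0, with a median log2 change of 0.39. Their summed signal, however, was 96.8 to 549 in the high fat males (median 170.5) and 77.1 to 306 in the chow males (median 174), with the lower median on high fat. The largest changes were in the oligoadenylate synthetase Oas1a, at 1.80-fold higher, a log2 change of 0.85 ± 0.22 (adjusted p = 0.000719), the chemokine Cxcl10 (0.84 ± 0.18) and Oas1g (0.78 ± 0.22). Other members were Ifit1 (0.65 ± 0.22), Usp18 (0.61 ± 0.23) and Gbp3 (0.60 ± 0.17). Oas1a shared 57.6% and Oas1g 45.7% of their words with other genes. Leaving out the 5 least alike males kept 12 of the 15 calls. Of the 15, 2 were called in G11L1 mice alone and 8 in G11L2 mice alone, all higher. Among class II antigen presentation genes 3 of 7 rose (10.7% of all genes), namely Ciita (0.43 ± 0.14), H2-DMb1 (0.36 ± 0.13) and H2-DMa (0.31 ± 0.11), none of them called within a single generation label.

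Lymphocyte markers gave 0 limma calls among 15 tested genes with the deposited values, and 3 higher after rescaling. Their sums were 2.81 to 34.9 in the high fat males (median 5.61) and 1.73 to 26.2 in the chow males (median 5.02). Neutrophil markers rose in 4 of 5 tested cases (10.7% of all genes), S100a9 (0.89 ± 0.21), S100a8 (0.59 ± 0.19), Csf3r (0.46 ± 0.12) and Cxcr2 (0.37 ± 0.12), while 7 others including Elane and Mpo did not pass the filter on low values. All 4 were called in G11L1 mice alone and 0 in G11L2 mice alone. The summed neutrophil signal was 0.514 to 4.29 in the high fat males (median 1.54) and 0.385 to 5.98 in the chow males (median 0.904). Endothelial markers gave 1 higher, Lyve1 (0.65 ± 0.18), and 1 lower, Ehd3 (-0.30 ± 0.06), among 16, no more than the 10.7% and 15.3% of all genes. In the bile duct list 4 of 11 rose (10.7% of all genes), Anxa2 (1.10 ± 0.16), Krt23 (0.87 ± 0.34), Spp1 and Tspan8 (0.46 ± 0.15), while Krt19 (0.05 ± 0.11) and Epcam (0.24 ± 0.18) were not called. Of 6 erythroid genes tested 3 rose (10.7% of all genes), Hba-a2 (0.89 ± 0.38), Hbb-bs (0.72 ± 0.31) and Slc4a1 (0.46 ± 0.18). The summed erythroid signal was 9.12 to 554 in the high fat males (median 99.8) and 11.1 to 619.9 in the chow males (median 79.3). Hbb-bs lost its call without the 6 males with pancreas transcripts, and both globins lost it with coat colour as a further covariate. None of the 3 was called in G11L2 mice alone, and Hba-a2 shared 89.3% and Hbb-bs 53.2% of their words with other genes. Fabp4 rose (0.78 ± 0.18) and Lipe did not pass (-0.19 ± 0.08) among adipose genes, and Adipoq, Lep, Plin1, Cfd and Retn were under the filter. Of 6 tested pancreas genes 1 was called lower as deposited (38.8% of all genes) and 0 after rescaling.

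Acute phase genes gave 6 of 28 higher and 6 lower (10.7% and 15.3% of all genes). Of these 12 calls, 9 were also made in G11L1 mice alone and 5 in G11L2 mice alone. Lcn2, a siderophore-binding lipocalin, had a signal of 0.204 to 45.3 in the high fat males (median 5.56) and 0.107 to 97.7 in the chow males (median 0.771). The highest liver was that of a chow male, yet 41 of 46 high fat males exceeded the chow median. Lcn2 was 4.26-fold higher, a log2 change of 2.09 ± 0.41 (adjusted p = 1.73e-05). Its change was 3.15 in G11L1 and 0.98 in G11L2 mice, and it was not called in G11L2 mice alone (limma adjusted p = 0.291).

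Orm3 (0.94 ± 0.38), Saa3 (0.74 ± 0.22), Il1rn (0.97 ± 0.18) and the haem binder Hpx (0.28 ± 0.12) rose. Like Lcn2, they were not called in G11L2 mice alone, and Hpx also lost its call with coat colour as a further covariate. Hepcidin (Hamp), the iron hormone, had a signal of 11.3 to 156 in the high fat males (median 37.9) and 23.5 to 212 in the chow males (median 102) and was 2.21-fold lower, a log2 change of -1.15 ± 0.16 (adjusted p = 4.22e-09). All 3 fibrinogen chains fell, Fga (-0.56 ± 0.10), Fgb (-0.51 ± 0.10) and Fgg (-0.54 ± 0.09). Saa1 (0.93 ± 0.44) and Saa2 (1.16 ± 0.51) were not called. In the unfolded protein and stress list, 3 of 25 fell and 2 rose, no more than the 15.3% and 10.7% of all genes, so the list as a group did not stand out. The members called were asparagine synthetase Asns (-0.87 ± 0.27), Atf4 (-0.31 ± 0.06) and Hsp90b1 (-0.29 ± 0.07) on the lower side, and Atf3 (1.20 ± 0.14) and Sesn2 (0.25 ± 0.07) on the higher side.

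Urea cycle and amino acid genes fell in 9 of 30 cases and rose in 1, beside 15.3% and 10.7% of all genes. After quantile normalization 5 of 30 were lower and 5 higher, beside 2547 and 2032 of all 14447 genes. Cps1, the entry enzyme of the urea cycle (-0.46 ± 0.09), Arg1 (-0.34 ± 0.08), Gls2 (-0.45 ± 0.10), the histidase Hal (-0.64 ± 0.11) and Agxt (-0.62 ± 0.09) fell, and Glul, glutamine synthetase of central hepatocytes, rose (0.35 ± 0.09). Periportal markers fell in 7 of 18 cases (15.3% of all genes) and rose in 1 (Apoa4), led on the lower side by Etnppl (-1.09 ± 0.19), Hal and Cyp2f2 (-0.55 ± 0.10). Central markers gave 2 higher, Glul and Lect2 (0.32 ± 0.09), and 2 lower, Cyp1a2 and Cyp27a1, among 16, near the 10.7% and 15.3% of all genes.

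Glucose metabolism gave 4 higher and 1 lower of 26, beside 10.7% and 15.3% of all genes. Ketohexokinase Khk (0.38 ± 0.07), Gpi1 (0.36 ± 0.06), Ugp2 (0.32 ± 0.08) and Pfkfb1 (0.24 ± 0.10) rose and the glycogen-targeting subunit Ppp1r3c fell (-0.55 ± 0.14). G6pc, glucose-6-phosphatase (-0.45 ± 0.18), and Pck1 (-0.31 ± 0.17) were not called with both scalings. Lipoprotein genes gave 4 lower and 2 higher of 23, near the 15.3% and 10.7% of all genes. Sort1, a sorting receptor tied to lipoprotein secretion, had a signal of 0.771 to 11.0 in the high fat males (median 2.72) and 0.719 to 15.2 in the chow males (median 5.06) and was 1.89-fold lower, a log2 change of -0.92 ± 0.19 (adjusted p = 2.91e-05), Apob fell (-0.35 ± 0.06), and Apoc2 (0.75 ± 0.09) and the phospholipid transfer protein Pltp (0.61 ± 0.14) rose. Apoc2 shared 78.3% of its words with other genes.

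Core clock genes were called in 10 of 19 cases, 5 in each direction, beside 10.7% of all genes higher and 15.3% lower. Arntl, which encodes BMAL1, and its partner Clock fell (-0.83 and -0.48), as did Nr1d1, which encodes a repressor of Arntl (-0.39 ± 0.11). Per3 (0.75 ± 0.19), Per2 (0.60 ± 0.16), Per1 (0.53 ± 0.23), Ciart (0.66 ± 0.28) and Dbp (0.61 ± 0.22) rose. Nr1d1 was not called in G11L2 mice alone, Per1, Ciart and Dbp were not called in either generation label alone, Per1 and Ciart lost their calls with coat colour as a further covariate, and Per1 also without the 5 least alike males. The labels used here give no hour of collection, so diet and time of day cannot be told apart for these genes. Ribosomal protein genes fell in 19 of 37 cases (15.3% of all genes) by small amounts, with a median log2 change of -0.23 (-0.12 rescaled). Their transcripts have many processed copies: Rps4x shared 41.2% and Rpl3 35.0% of their words with other genes. Oxidative phosphorylation depended on scaling, with 27 of 36 genes called lower as deposited and 3 of 36 with both scalings, beside 38.8% and 15.3% of all genes. Lysosomal genes gave 5 higher and 3 lower of 26 (10.7% and 15.3% of all genes), with Hexa higher (0.34 ± 0.09) and Lamp2 lower (-0.25 ± 0.04).

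Among the genes with the largest changes outside these lists, Ly6d, a surface antigen, had a signal of 0.0512 to 21.1 in the high fat males (median 1.35) and 0 to 2.06 in the chow males (median 0.0800). All but 1 of the 46 high fat males exceeded the chow median. Ly6d was 7.39-fold higher, a log2 change of 2.89 ± 0.32 (adjusted p = 5.94e-12). Pls1, an actin-bundling plastin, was 4.39-fold higher, a log2 change of 2.14 ± 0.24 (adjusted p = 2.91e-11).

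Smpd3, a neutral sphingomyelinase, had a signal of 1.79 to 11.8 in the high fat males (median 5.37) and 0.119 to 8.11 in the chow males (median 1.06), and all 46 high fat males lay above the chow median. It was 4.07-fold higher, a log2 change of 2.02 ± 0.23 (adjusted p = 3.71e-11). Omd, a small proteoglycan (1.63 ± 0.16), the adaptor Stap1 (1.63 ± 0.18) and the class I-like gene H2-Q1 (1.96 ± 0.31) also rose.

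On the lower side Slco2a1, a prostaglandin transporter, had a signal of 2.76 to 13.1 in the high fat males (median 5.36) and 8.63 to 30.1 in the chow males (median 17.4). No high fat male reached the chow median, and 37 of 46 lay below every chow male. Slco2a1 was 3.06-fold lower, a log2 change of -1.61 ± 0.11 (adjusted p = 1.71e-22). Tcf24, a transcription factor gene of low signal, was 5.41-fold lower, a log2 change of -2.44 ± 0.34 (adjusted p = 7.87e-09), with 0 to 1.01 in the high fat males (median 0.0688) and 0 to 6.23 in the chow males (median 1.29). Cyp26a1, which clears retinoic acid, was 2.95-fold lower, a log2 change of -1.56 ± 0.24 (adjusted p = 1.07e-07).

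Enho, which encodes adropin (-1.67 ± 0.32), the receptor gene Adgrf1 (-1.61 ± 0.26) and the dicarboxylate transporter Slc13a2 (-1.51 ± 0.27) were the others of the 15 genes named for the size of their fall.

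The males were next set against the females on the same diets (48 on high fat, 50 on chow), in a fit of all 192 mice with an interaction term over 14602 genes. The diet difference in males was higher than in females for 204 genes (1.4%) and lower for 306 (2.1%) with both scalings. As deposited, 213 were higher and 1010 lower, 1223 in all. Within a single label, 546 genes were called in G11L1 mice alone and 54 in G11L2 mice alone as deposited. Of the 510 genes, 501 were still called without the chow female whose Xist lies in the male range. Most genes shared their direction: of 3726 genes called in males and tested in the joint fit, 3483 had the same sign in females. Of the 204 genes with the higher male difference, 87 rose in males alone under the call rule, 84 fell in females alone, 18 were called the same way in both sexes and 4 in opposite ways. Of the 306 with the lower male difference, 117 fell in males alone, 120 rose in females alone, 15 were called the same way in both and 9 in opposite ways. The rest were called in neither sex. Differences below are male minus female on the log2 scale, and were estimated together, so they can depart slightly from the gap between the values printed for each sex.

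**Figure D4:**
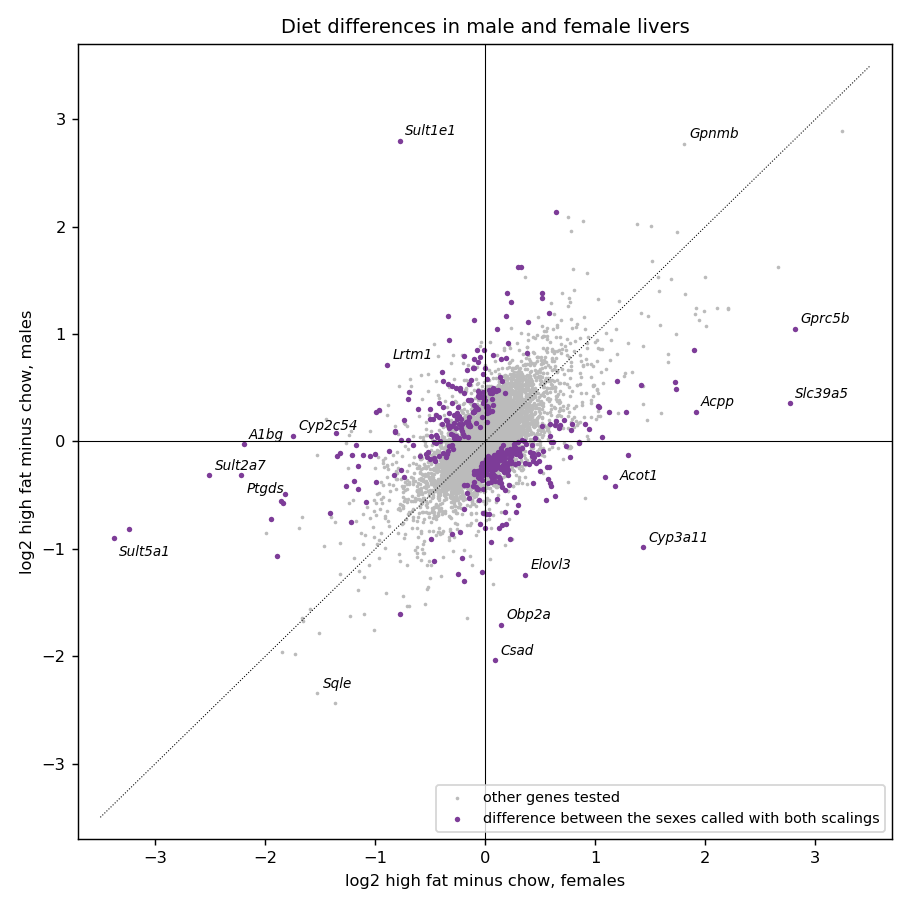
Log2 diet difference (high fat minus chow) of each gene in males (vertical axis) and in females (horizontal axis), with the line of equal differences dotted. Genes whose difference between the sexes was called with both scalings are in purple. Cyp3a11 (-0.99 in males, 1.43 in females) lies at the lower right and Sult1e1 (2.80 in males, -0.78 in females) at the upper left.

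Cyp3a11 changed in opposite directions in the sexes. Beside the male change of -0.99, its signal was 54.4 to 1128 in high fat females (median 575) and 9.55 to 1099 in chow females (median 219.7), a female change of 1.43 ± 0.20 (adjusted p = 7.32e-10). The difference between the sexes was -2.43 ± 0.28 (adjusted p = 2.67e-11).

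Csad had a median of 7.27 in high fat males and 32.2 in chow males. Its signal was 2.99 to 62.7 in high fat females (median 6.25) and 1.88 to 22.1 in chow females (median 6.70). The ranges of the high fat males and both female groups overlapped, and chow males had the highest median. The female change was 0.09 ± 0.19 and was not called (adjusted p = 0.745), and the difference between the sexes was -2.12 ± 0.27 (adjusted p = 1.22e-09).

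Sult1e1, with a median of 0.862 in high fat males and 0.0520 in chow males, was 0.0270 to 39.1 in high fat females (median 1.77) and 0.0921 to 30.4 in chow females (median 2.70). Females on both diets and high fat males overlapped, and chow males had the lowest median. The difference between the sexes was 3.58 ± 0.53 (adjusted p = 2.35e-07), while the female change of -0.78 ± 0.37 was not called. Elovl3 had medians of 21.9 in high fat and 47.5 in chow males, and was 0.623 to 7.10 in high fat females (median 1.93) and 0.290 to 3.47 in chow females (median 1.45), with a difference between the sexes of -1.60 ± 0.27 (adjusted p = 8.15e-06).

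Other genes were called in females and not, or less, in males. Slc39a5, a zinc transporter, was 0 to 1.74 in high fat males (median 0.0581) and 0 to 0.411 in chow males (median 0.0502). In females it was 0.217 to 14.4 in high fat females (median 2.42) and 0.0118 to 2.76 in chow females (median 0.223). It was not called in males (0.36) and rose in females (2.77 ± 0.24), and the difference was -2.41 ± 0.34 (adjusted p = 7.4e-08). The thioesterase Acot1 had a male change of -0.41 that was not called and rose in females (1.18 ± 0.18), a difference of -1.58 ± 0.26. Gprc5b, an orphan receptor, rose in both sexes by unequal amounts (male 1.05, female 2.81 ± 0.27, difference -1.75 ± 0.39). Acpp, an acid phosphatase, was not called in males (0.28) and rose in females (1.91 ± 0.35), a difference of -1.63 ± 0.49. Obp2a was the reverse, lower in males (-1.71) and not called in females (0.14 ± 0.37, adjusted p = 0.801), a difference of -1.83 ± 0.54. Its signal was 0 to 0.171 in high fat females (median 0.0135) and 0 to 0.0533 in chow females (median 0). Every chow female lay under the pseudocount of 0.0629, so a fall in females could not have been seen.

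**Figure D5:**
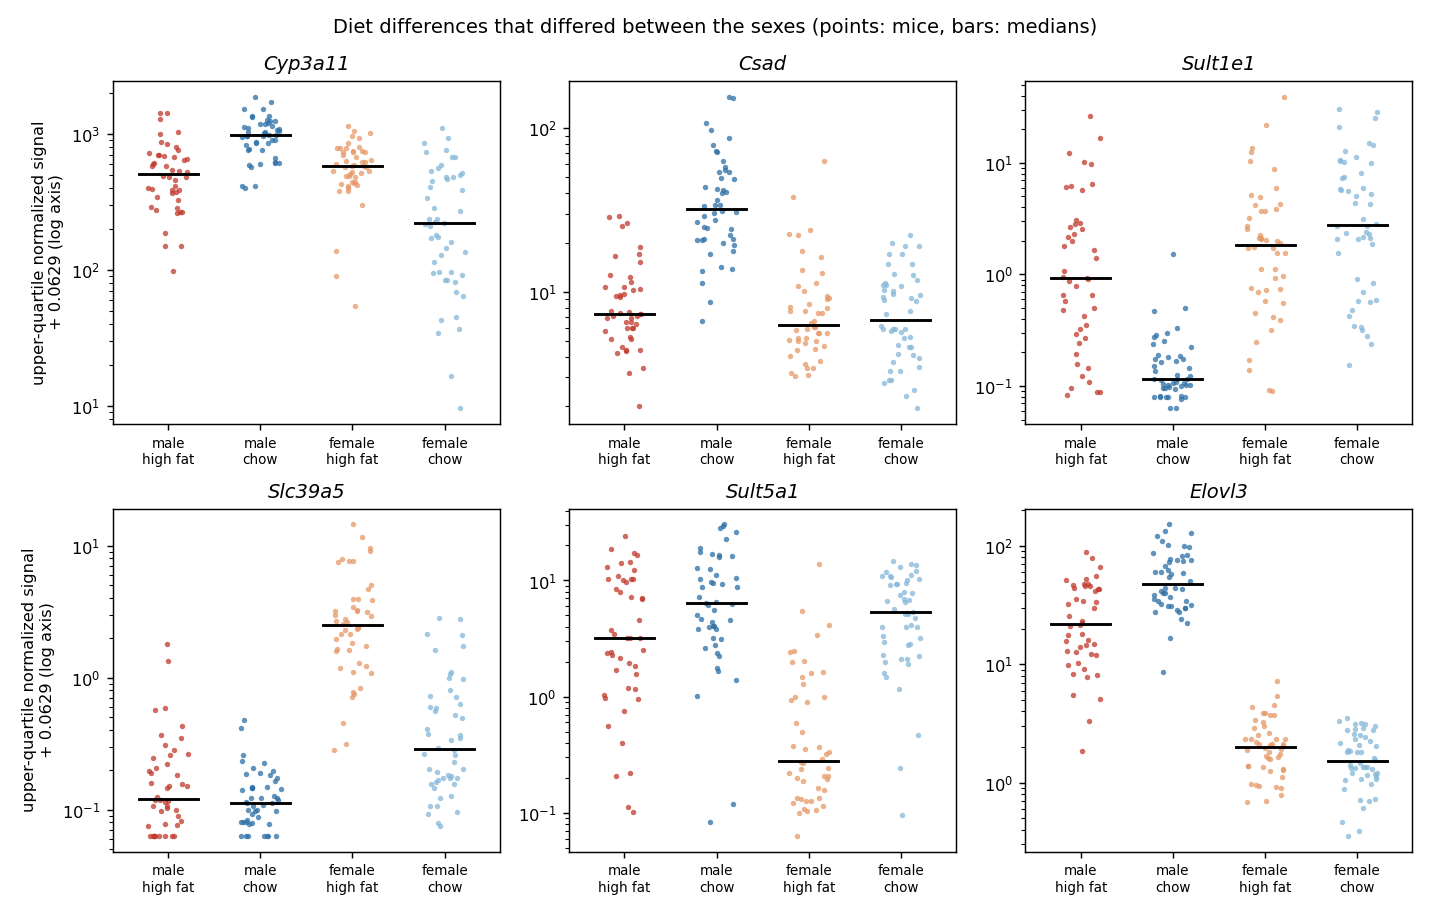
Signal of 6 genes whose diet difference differed between the sexes, in each mouse of the 4 groups (points; bars are medians), with the pseudocount added and a log axis. The median of Csad is 7.27 in high fat males and 32.2 in chow males, and that of Sult5a1 is 0.219 in high fat females and 5.25 in chow females.

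In the other direction, the sulfotransferase Sult5a1 was 0.0377 to 24.2 in high fat males (median 3.15) and 0.0200 to 30.4 in chow males (median 6.31). In females the signal was 0 to 13.9 in high fat females (median 0.219) and 0.0337 to 14.5 in chow females (median 5.25). Sult5a1 was not called with both scalings in males (-0.90) and fell in females (-3.38 ± 0.36), and the difference was 2.49 ± 0.51 (adjusted p = 0.000469). The sulfotransferase Sult2a7 (difference 2.21 ± 0.58), the plasma protein gene A1bg (2.21 ± 0.49), the prostaglandin D synthase Ptgds (1.91 ± 0.28), Cyp2c54 (1.80 ± 0.28) and Lrtm1 (1.62 ± 0.45) had a higher diet difference in males too. Like Sult5a1, none of these 5 was called with both scalings in males, and all 5 fell in females, by 0.90 (Lrtm1) to 2.51 (Sult2a7) on the log2 scale. Among the 13 genes called in opposite directions, Retsat, a retinol saturase, fell in males (-0.39 ± 0.11) and rose in females (0.58 ± 0.10), with a difference of -0.97 ± 0.14. Pde1a, a phosphodiesterase, rose in males (0.39 ± 0.14) and fell in females (-0.70 ± 0.13), a difference of 1.10 ± 0.19. Lect2 did likewise (0.32 in males, -0.25 ± 0.08 in females). Retsat, Pde1a and Lect2 were singled out after their values were seen. Sterol synthesis showed no member with a called difference between the sexes, with a female median of -0.64. Gpnmb was higher in high fat females too (1.80 ± 0.29), and its difference of 0.95 ± 0.42 did not pass (adjusted p = 0.134).

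The spread between mice was tested on the distances of the log2 values to the median of their diet and generation, taken without sign. High fat males varied more for 72 genes (0.498%) and less for 11 (0.0761%), 83 in all. Without the 5 least alike males 31 were called, and 0 to 5 within a single generation label. Gpnmb (1.33 ± 0.19 more on the log2 scale, adjusted p = 3.17e-06), the receptor kinase Ephb2 (0.87 ± 0.13), Mybl1 (0.44 ± 0.08), Trem2 (0.62 ± 0.11), Sult1e1 (1.16 ± 0.22) and Folh1 (0.54 ± 0.11) were the 6 with the smallest p. Most chow values of Gpnmb, Ephb2, Trem2, Sult1e1 and Folh1 lay near or under the pseudocount, where the log2 scale is compressed, and with a 10 times smaller pseudocount 14 genes were called in all. Less spread was called for Ndrg1 (-0.44 ± 0.08), Smpd3 (-0.66 ± 0.14), Ppp1r42 (-0.43 ± 0.09), Cdhr2 (-0.84 ± 0.19), Olfm1 (-0.41 ± 0.09) and Anapc4 (-0.11 ± 0.03). Anapc4, a subunit of the anaphase-promoting complex, averaged 4.28 ± 0.401 in the high fat males and 4.44 ± 0.830 in the chow males (SD) and was not called in the comparison of levels (adjusted p = 0.591).

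Correlations between the 5 marker genes were tested over 10 pairs in each diet (20 relations). Mice of both generation labels were pooled, without the label as a covariate. No correlation of log2 signals passed adjustment, which does not show that the genes ranked the mice differently. The closest was Csad with Cyp3a11 in the 46 high fat males, with Pearson's r = 0.42 (permutation p = 0.00306, adjusted p = 0.0612) and Spearman's rho = 0.27 (permutation p = 0.0694, adjusted p = 0.44). It was 0.39 without the 2 mice farthest from the median of Csad, 0.53 in the 25 G11L1 and 0.59 in the 21 G11L2 mice, and 0.27 in the 48 chow males. Sult1e1 and Gpnmb, which both rose, had r = -0.03 in the high fat males (permutation p = 0.86, adjusted p = 0.912). Csad and Sqle, which both fell, had r = 0.16 (permutation p = 0.286, adjusted p = 0.912).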

How the data were processed

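Liver mRNA of 192 Diversity Outbred mice was sequenced as 100-base single-end reads in 2 technical repeats per mouse, per the labels' protocols. The authors deposited a table of 21454 genes with a single column per mouse, a signal scaled to the upper quartile of each mouse. The submitters' processing notes name CASAVA 1.8.0, GRCm38 and mm10, and the aligner and the counting program are not given in the sources used here. Whole reads could not be recovered from the values (77.0 to 82.4% per male lay within 0.1 of a whole read, among values of up to 100 reads), so no count test was run. Depth was estimated from the value of 1 read, and 0 columns of other samples were found. GENCODE M21 named 21022 of the gene IDs.

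Genes above 0 in at least 46 males and with a mean of at least the pseudocount (0.0629, the median upper quartile of 6.29 divided by 100 and worth about 3.68 reads of the median male) were tested with limma 3.58.1 in R 4.3.3 (trend fit on log2 values, generation label as covariate, Benjamini-Hochberg adjustment). The fit was tested on simulated data. The comparison with females used all 192 mice and the term for diet by sex. The spread was fitted the same way on absolute deviations. Shares and correlations used two-sided permutation tests with 100000 resamples. The p-values take mice as replicates. No mouse number is shared between the diets within a sex, so the diet comparison cannot be paired.

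Named genes were the 5 markers, the 15 called genes with the largest change in each direction (genes with a symbol and averaging 10 pseudocounts or more in 1 diet, without predicted genes or pseudogenes), up to 4 members of each list with the smallest p, the 8 largest differences from females in each direction, and the 6 smallest p for spread in each direction. Further list members were named to describe their group. Members and lists were chosen with earlier results of these data known. Sharing of 50-base words between transcripts was computed from the GENCODE M21 transcripts. Alternatives were other pseudocounts, filters, scalings, covariates, weights and subsets of mice. Some named genes are not reported here.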

Additional observations from a re-analysis of the deposited data

Results flagged for a closer look

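These results were singled out because the diet difference differed between males and females by the interaction term of limma, and each value is the male minus the female log2 difference. The diet difference was lower in males for Cyp3a11 (-2.43 ± 0.28), Slc39a5 (-2.41 ± 0.34), Csad (-2.12 ± 0.27), Obp2a (-1.83 ± 0.54), Gprc5b (-1.75 ± 0.39), Acpp (-1.63 ± 0.49), Elovl3 (-1.60 ± 0.27), Acot1 (-1.58 ± 0.26) and Retsat (-0.97 ± 0.14). It was higher in males for Sult1e1 (3.58 ± 0.53), Sult5a1 (2.49 ± 0.51), Sult2a7 (2.21 ± 0.58), A1bg (2.21 ± 0.49), Ptgds (1.91 ± 0.28), Cyp2c54 (1.80 ± 0.28), Lrtm1 (1.62 ± 0.45), Pde1a (1.10 ± 0.19) and Lect2 (0.58 ± 0.12). Obp2a lay near 0 in females on both diets, so a fall in females could not have been seen. Retsat, Lect2 and Pde1a are here because they were called in opposite directions in the sexes.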

How the results depend on the processing

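The 7144 calls of the diet comparison in males became 4579 (2032 higher, 2547 lower) after quantile normalization, 4726 in G11L1 mice alone, 4289 in G11L2 mice alone, 3749 with the rule of both scalings and 522 with a fold of at least 1.5; the other alternatives gave 4813 (median-of-ratios rescaling) to 7479. The 1223 differences between males and females became 617 after rescaling, 633 after quantile normalization, 546 in G11L1 mice alone, 54 in G11L2 mice alone and 510 with both scalings; the other alternatives gave 1039 to 1527. Within a generation label fewer mice were fitted, 23 to 25 per sex and diet in G11L1 and 21 to 25 in G11L2. The gap between 546 and 54 calls was not tested. The 83 spread calls became 14 with a pseudocount 10 times smaller, 33 with the stricter filter, 31 without the 5 least alike males, 5 in G11L1 mice alone and 0 in G11L2 mice alone, where limma had fewer mice; the others gave 75 to 123. Apart from the scalings and the subsets of mice, the cause was not tested. The rule of both scalings and the fit without the female with low Xist (1182 calls) were chosen after seeing the data. No call between the generation labels was made under any alternative run. Of the 179 named genes, 19 lost their call in G11L1 mice alone, 37 in G11L2 mice alone, 12 after rescaling and 23 after quantile normalization, and none reversed.

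Males and females share 92 mouse numbers. The deviations of same-numbered mice had a median correlation of 0.003 (-0.178 to 0.316) and 4 males correlated best with their own number, so the numbers did not pair the mice; with the number as a replicate block 1163 differences between the sexes were called.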
